A study of Drosophila melanogaster with 2 samples.

Results

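Nuclear tRNA genes were examined for binding of the zinc finger protein Pita in Drosophila melanogaster embryos. The genes were all those with the biotype tRNA in the Ensembl BDGP6 gene models on the arms 2L, 2R, 3L, 3R, 4 and X, and the mitochondrial tRNA genes were left out. This gave 290 tRNA genes of 18164 genes on these arms. Of these, 98 lay on 2R, 79 on 3R, 48 on 3L, 41 on 2L, 24 on X and none on 4. For each gene, the distance was taken from the annotated 5′ end to the nearest peak summit in 2 lists made by the authors. The first was the optimal list of peaks thresholded by irreproducible discovery rate (IDR), a measure of how well peak ranks repeat between replicates, with 1338 peaks. The second was the list of 30000 candidate peaks called on the pooled libraries, which was deposited as peaks and background together. A summit within 500 bp was counted as lying at the gene.

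The label of each gene is the annotation's biotype, and the only check of it on sequence was a search for the B box. By their symbols, the genes carried 22 isotypes and 44 anticodons. Their annotated lengths ran from 71 to 186 bp, with a median of 73 bp. An annotated intron was present in 16. The B box, the internal promoter element bound by the transcription factor TFIIIC, was found in 160 of the 290 in its strict form GTTCGANNC on the gene's own strand. Symbols give the amino acid, the anticodon, a sequence family and a copy number, so that tRNA:Phe-GAA-1-2 is the second copy of the first family of phenylalanine tRNA genes. The 290 genes held 95 distinct sequences, and 238 had at least 1 identical copy.

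Transfer RNAs carry amino acids to the ribosome, and their genes are transcribed by RNA polymerase III from promoter elements that lie inside the gene, the A box and the B box. TFIIIC binds these boxes and brings TFIIIB and the polymerase, and in yeast and mammals tRNA genes can act as chromatin boundaries. Pita is a Drosophila protein with a row of zinc fingers, known for binding insulators and recruiting the cofactor CP190. Many of the genes sit in clusters of several copies. A peak beside a tRNA gene can therefore also lie beside another tRNA gene or beside the promoter of a protein-coding gene.

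The 2 libraries form 1 group, biological replicates 1 and 3 of chromatin immunoprecipitation with sequencing. Both came from whole embryos of both sexes, 0 to 24 hours old, of 1 transgenic line that stably expressed Pita with GFP at its C terminus, so no untagged group was compared and the cell types of the embryo were pooled. Chromatin was sonicated to 200 to 800 bp. The labels conflict on the antibody, since the description names anti-GFP and the antibody field names pita. A control experiment that the labels name was not analysed here, and nothing says how the replicates were raised, so the spread between them may be partly technical. The signal of a peak is the authors' own value, on a scale that the sources used here do not give, and read depth is unknown. All shares have exact Clopper-Pearson 95% intervals that cover only the counting of genes or peaks.

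Sequences of 3 of the 5 peaks beside tRNA genes that hold the motif of Pita peaks elsewhere in the genome are shown, so that the site can be read beside the gene. All are RefSeq sequence of the dm6 build, 5′ to 3′. The motif was searched in 2 forms on both strands. The first was a pair of 8-mers, CTCAAACC and CACAAACC, whose reverse complements are GGTTTGAG and GGTTTGTG. The second was a 19 bp matrix grown from these on IDR peaks away from tRNA genes, which counts a match above a score that 5% of flanking windows exceed. Its most fixed positions were C at positions 18 and 19, with frequencies of 0.986 and 0.973, and A at position 4, with 0.937. Capitals mark the 19 bp match and, at the glutamine gene, first the tRNA gene and then the match.
tRNA:Gln-CTG-2-3, chr2L:2009533-2009802, plus strand: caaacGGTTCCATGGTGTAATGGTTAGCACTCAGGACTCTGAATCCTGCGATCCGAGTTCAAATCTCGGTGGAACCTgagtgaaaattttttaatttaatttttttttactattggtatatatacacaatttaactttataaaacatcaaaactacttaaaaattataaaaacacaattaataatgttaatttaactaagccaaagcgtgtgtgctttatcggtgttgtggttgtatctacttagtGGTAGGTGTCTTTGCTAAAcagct
tRNA:Pro-CGG-2-3, chr3L:18618221-18618279, plus strand: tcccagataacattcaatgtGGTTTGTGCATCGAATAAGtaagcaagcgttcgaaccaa
tRNA:Phe-GAA-1-2, chrX:6744362-6744420, plus strand: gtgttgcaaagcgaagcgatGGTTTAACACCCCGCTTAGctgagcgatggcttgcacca
The 3 matches were read on the minus strand, so that on the strand shown they begin with GG, the complement of the fixed CC at the matrix's end. In the first run the gene occupies chr2L:2009538-2009609 and the match chr2L:2009779-2009797. The second run, chr3L:18618221-18618279, holds the 8-mer GGTTTGTG and lies upstream of the proline gene at chr3L:18618390-18618461. The third lies beyond the 3′ end of the phenylalanine gene at chrX:6744471-6744543, which is on the minus strand. None of the 3 matches lies inside a tRNA gene.

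Genes of the tRNA class themselves hold matches to the same matrix, and 4 are shown because they look like the sites above. They are printed on the gene's own strand from its first base to its last, with the match in capitals.
tRNA:Lys-TTT-1-1, chr2L:8290727-8290799, plus strand: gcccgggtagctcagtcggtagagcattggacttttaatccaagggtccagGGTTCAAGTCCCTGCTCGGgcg
tRNA:Gly-TCC-1-1, chr3R:7129864-7129935, plus strand: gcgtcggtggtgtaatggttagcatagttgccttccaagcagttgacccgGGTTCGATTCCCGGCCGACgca
tRNA:Leu-TAA-1-1, chr3R:20604749-20604832, minus strand: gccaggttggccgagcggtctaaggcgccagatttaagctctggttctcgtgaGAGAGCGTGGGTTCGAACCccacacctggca
tRNA:Pro-CGG-3-1, chrX:3827622-3827693, plus strand: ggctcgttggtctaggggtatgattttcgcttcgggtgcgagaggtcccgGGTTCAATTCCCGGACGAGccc
The lysine gene tRNA:Lys-TTT-1-1 had the highest score of any tRNA gene, 15.2 on a log2 scale against a threshold of 5.80. The match in tRNA:Gly-TCC-1-1 scored 11.1 and overlapped the B box word. The leucine and proline genes had a weak pooled candidate whose summit lay inside the gene. In the leucine gene the match was on the gene's own strand, and in the other 3 it was on the opposite strand.

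IDR peaks lay at few tRNA genes. An IDR summit was within 500 bp of the 5′ end of 11 of 290 tRNA genes, 3.79% (95% interval 1.91% to 6.69%), against 4.46% of all 18164 genes on the arms. All genes other than tRNA genes gave 800 of 17874, 4.48%. Protein-coding genes gave 5.39% (5.02% to 5.78%), snoRNA genes 1.12% (0.231% to 3.22%) and the 32 snRNA genes 6.25% (0.766% to 20.8%). The 3261 other ncRNA genes gave 1.29% (0.930% to 1.74%) and the 268 pseudogenes 0.373% (0.00945% to 2.06%). The share at tRNA genes is near that of all genes, most of which are protein-coding, and its interval contains it. For scale, 0.842% of the bases of the arms lie within 500 bp of an IDR summit.

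Pooled candidates were at 46 of 290 tRNA genes, 15.9% (11.9% to 20.6%), against 23.6% of all genes. The share among all other genes was 23.7%, among protein-coding genes 23.9% (23.2% to 24.7%), among snoRNA genes 39.4% (33.5% to 45.5%) and among snRNA genes 18.8% (7.21% to 36.4%). Of the 133880608 bases of the arms, 25485882 lie within 500 bp of a pooled candidate. No candidate was at the other 244 tRNA genes. The share at tRNA genes was 22.4%, 39 of 174, when genes up to 1000 bp apart were counted once as a cluster, so the value depends on how neighbouring copies are counted. The median share of 31-base words within 500 bp that are unique in the genome was 92.1% at tRNA genes and 100% at the other genes. Among genes with at least 80% unique words, a pooled candidate was at 46 of 274 tRNA genes, 16.8% (12.6% to 21.8%), against 24.6% of the other genes. The part of repeated sequence in the shares was not tested further.

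**Figure D1:**
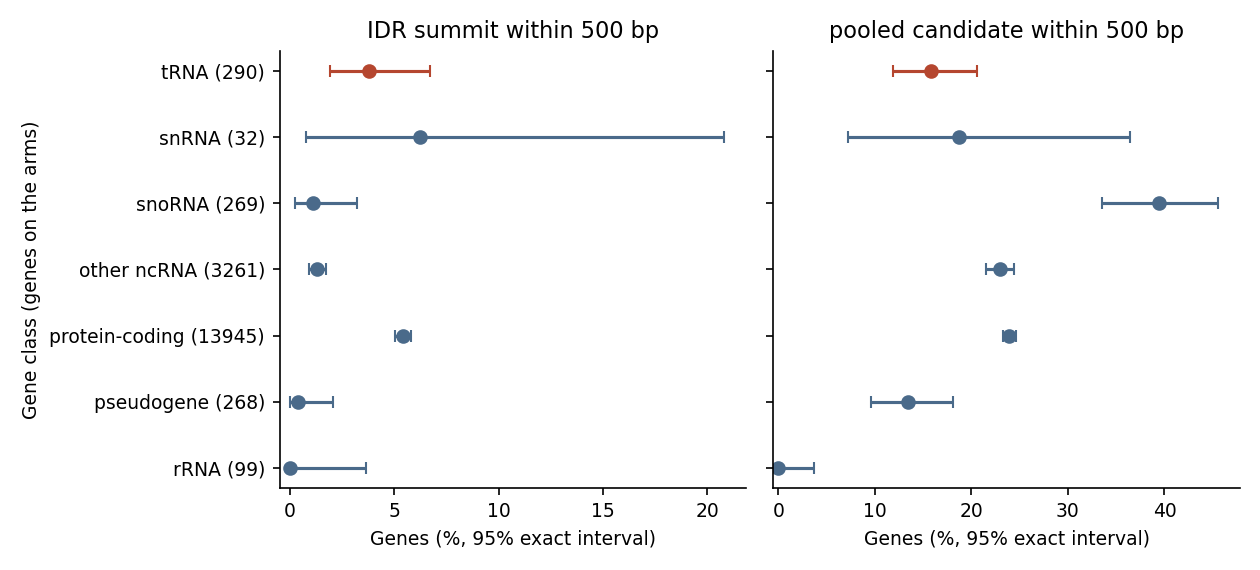
Share of genes of each class with an IDR summit (left) or a pooled candidate summit (right) within 500 bp of the 5′ end, in percent, with the number of genes of the class in brackets; points are shares and bars exact 95% intervals. The tRNA genes are at 3.79% for IDR summits and 15.9% for pooled candidates, and the 99 rRNA genes are at 0 in both.

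Most tRNA genes were far from any reproducible peak. The median distance from a tRNA gene to the nearest IDR summit was 40126 bp, against 35814 bp for the other genes, and that to the nearest pooled candidate was 1367 bp, against 1219.5 bp. An IDR summit lay within 100 bp of 2 tRNA genes, within 200 bp of 5, within 1000 bp of 17 and within 10000 bp of 56. A pooled candidate lay within 100 bp of 8, within 200 bp of 18 and within 1000 bp of 113. No IDR summit lay inside a tRNA gene whose nearest summit was within 500 bp.

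**Figure D2:**
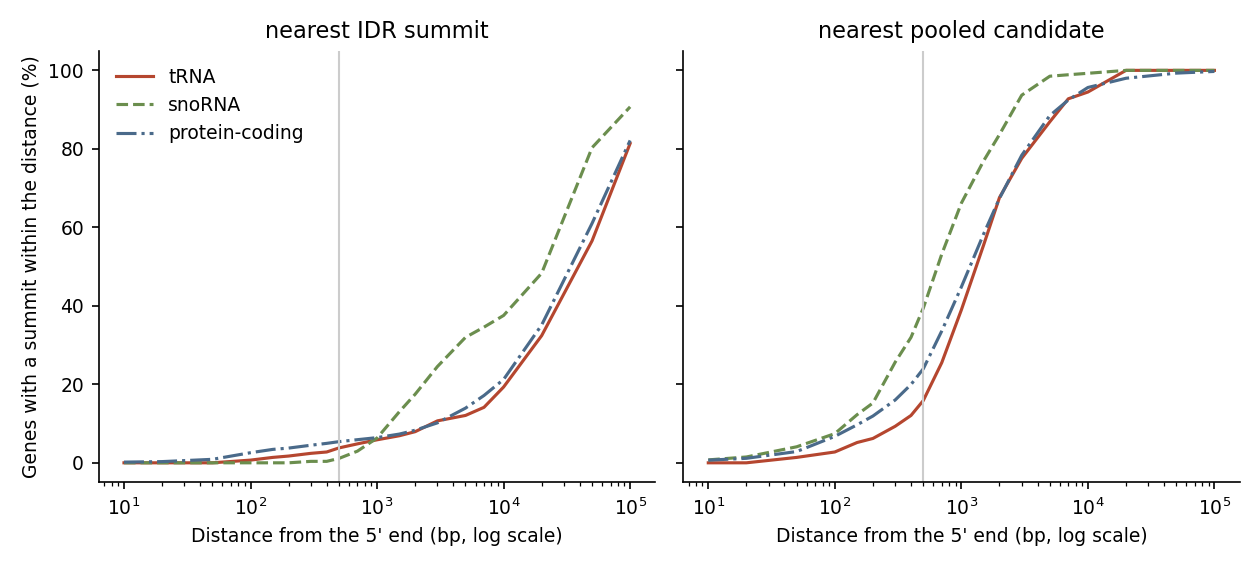
Cumulative share of genes (percent) with a summit within a given distance of the 5′ end (bp, log scale), for tRNA, snoRNA and protein-coding genes; left, nearest IDR summit, and right, nearest pooled candidate. The grey line marks 500 bp, where the tRNA genes are at 3.79% and 15.9%.

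The 11 tRNA genes with an IDR summit shared 9 summits. Their isotypes were phenylalanine (3 of 8 genes), proline (2 of 17), serine (2 of 20), alanine (1 of 17), arginine (1 of 26), glutamine (1 of 12) and valine (1 of 15). The summit was upstream of the 5′ end for 7 genes and beyond the 3′ end for 4. The signal of the 9 summits was 200 at the lowest, 1216 at the median and 1858 at the highest, and that of the whole IDR list was 144, 491 and 4711. Of the 9 values, 5 lay at 1216 to 1858 and the remaining 4 at 200 to 271.

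**Figure D3:**
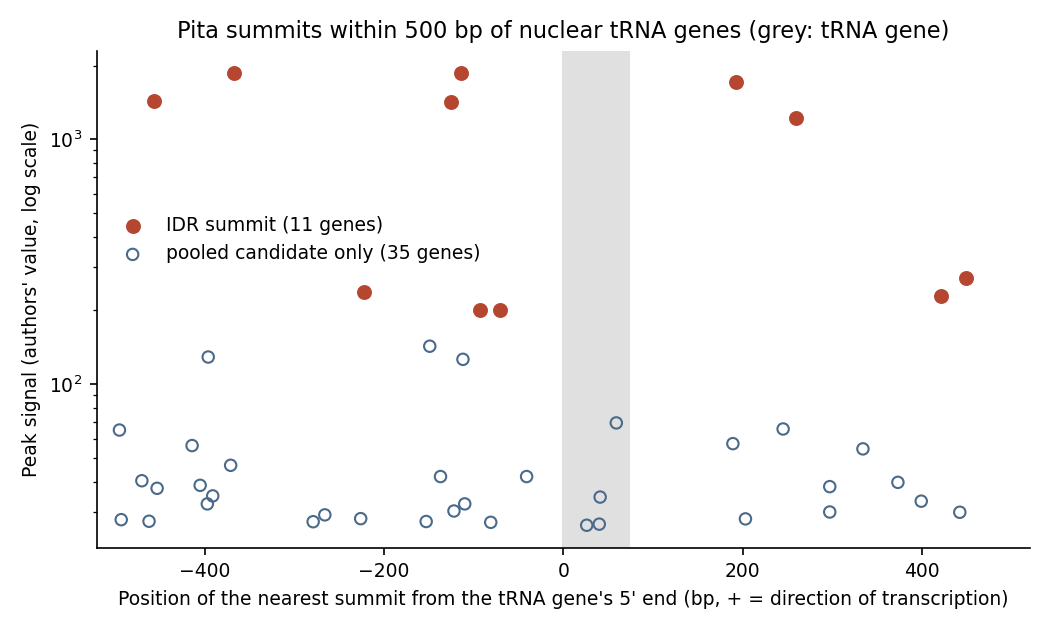
Signal of the nearest summit (authors' value, log scale) against its position from the 5′ end of the tRNA gene (bp, positive in the direction of transcription), for the 11 genes with an IDR summit (filled) and the 35 with a pooled candidate only (open). The grey band marks a gene of the median length of 73 bp; no filled point lies in it, and the filled points fall into a group at 1216 to 1858 and a group at 200 to 271.

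The strongest summit lay between 2 serine tRNA genes that point away from each other, tRNA:Ser-TGA-1-1 (FBgn0050201) and tRNA:Ser-TGA-2-1 (FBgn0050202). It was at 2R:23072467, 367 bp upstream of the first gene and 114 bp upstream of the second. Its pooled signal was 1858, rank 134 of 1338, with 963 in replicate 1 and 887 in replicate 3. The nearest protein-coding start was that of l(2)k09913, 2082 bp away, so no coding promoter was within 500 bp. Neither serine gene has an identical copy, and the matrix match in this peak scored 18.5.

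The phenylalanine gene tRNA:Phe-GAA-1-2 (FBgn0052740) carried its summit beyond the 3′ end, at X:6744350 and 193 bp from the 5′ end. The signal was 1720, rank 155, with 734 in replicate 1 and 972 in replicate 3. The start of RpL17, which encodes a protein of the large ribosomal subunit, was 112 bp from the summit. The matrix match printed above for this gene scored 9.71. The gene is 1 of 8 identical phenylalanine copies, and 2 others had an IDR summit. Those 2, tRNA:Phe-GAA-1-4 (FBgn0050333) and tRNA:Phe-GAA-1-5 (FBgn0050231), point away from each other around 1 summit at 2R:17604700, 93 bp and 71 bp upstream of them. Its signal was 200, rank 1112, with 82.9 in replicate 1 and 118 in replicate 3. It held a matrix match with a score of 11.7 and an 8-mer, and the nearest coding start, that of CG42649, was 5093 bp away. Copies with the same gene sequence thus had summits of 1720 and 200, and 5 of the 8 copies had none.

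The valine gene tRNA:Val-CAC-1-1 (FBgn0012002) had a summit 457 bp upstream, at 3R:17617304. Its signal was 1427, rank 218, with 615 in replicate 1 and 848 in replicate 3. The nearest coding start was that of CG14324 at 1495 bp. No matrix match lay within 50 bp of the summit, and 1 lay in a flanking window.

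Proline tRNA genes with the anticodon CGG had 2 summits of unequal signal. At tRNA:Pro-CGG-2-3 (FBgn0052200) the summit was 125 bp upstream, at 3L:18618265, with a signal of 1417, rank 225. The replicates gave 637 in replicate 1 and 772 in replicate 3, both at rank 229. The start of CG13380 was 322 bp from the summit, and the tRNA gene lies on the opposite strand inside not, which encodes the deubiquitinase Non-stop. Its matrix match scored 15.4. At the identical copy tRNA:Pro-CGG-2-2 (FBgn0052173) the summit at 3L:17339559 was 421 bp from the 5′ end, with a signal of 229. Replicate 3 gave 212 there and replicate 1 had no candidate within 100 bp. This summit is 205 bp from a stronger one in the same list, of signal 1158, which lies 626 bp from the gene and holds a matrix match. Without summits that lie within 300 bp of a stronger one, 10 of 290 tRNA genes kept an IDR summit, 3.45%. The third identical copy, tRNA:Pro-CGG-2-1, had a pooled candidate of 65.6 and no IDR summit.

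The glutamine gene tRNA:Gln-CTG-2-3 (FBgn0051944) carried its summit beyond the 3′ end as well, at 2L:2009797 and 259 bp from the 5′ end. The signal was 1216, rank 285, with 569 in replicate 1 and 648 in replicate 3. The start of CG4238 was 62 bp from the summit. The match in the printed run of 270 bases scored 19.7, the highest of the 9 summits, and ends at the summit base. The gene is 1 of 5 identical copies, and the others had no IDR summit within 500 bp. Among them tRNA:Gln-CTG-2-2 was 642 bp from the same summit, and tRNA:Gln-CTG-2-4 was 717 bp from a summit of signal 204.

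The last 2 of the 9 were among the weaker ones. The arginine gene tRNA:Arg-TCG-2-4 (FBgn0053551) lies inside pyd, which encodes a cell junction protein, on the opposite strand. Its summit at 3R:8863382 was 449 bp from the 5′ end, with a signal of 271, and gave 103 in replicate 1 and 186 in replicate 3. A start of pyd was 151 bp from that summit. The alanine gene tRNA:Ala-CGC-1-2 (FBgn0050199) lies inside gol, again on the opposite strand, and its summit at 2R:25076543 was 222 bp upstream. The signal was 239, with 70.9 in replicate 1 and 167 in replicate 3, and the nearest coding start was 7804 bp away. Neither summit held a match to the matrix or an 8-mer.

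Both replicates held a candidate within 100 bp of 8 of the 9 summits. In replicate 1 the strongest of them was the serine summit, with 963, and in replicate 3 the phenylalanine summit at RpL17, with 972. Replicate 3 gave the higher value at 7 of these 8 summits and replicate 1 at the serine summit. The signals of the libraries were not scaled to each other here. The strongest 1338 candidates of replicate 1 alone lay at 13 tRNA genes, and the strongest 1338 of replicate 3 alone also at 13. Of the IDR genes, 10 were in the first set and all 11 in the second, and 10 genes were in both sets. Replicate 1 added tRNA:Thr-AGT-2-1, tRNA:Thr-AGT-1-2 and tRNA:Ala-CGC-1-3, and replicate 3 added tRNA:iMet-CAT-1-4 and tRNA:iMet-CAT-1-5.

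**Figure D4:**
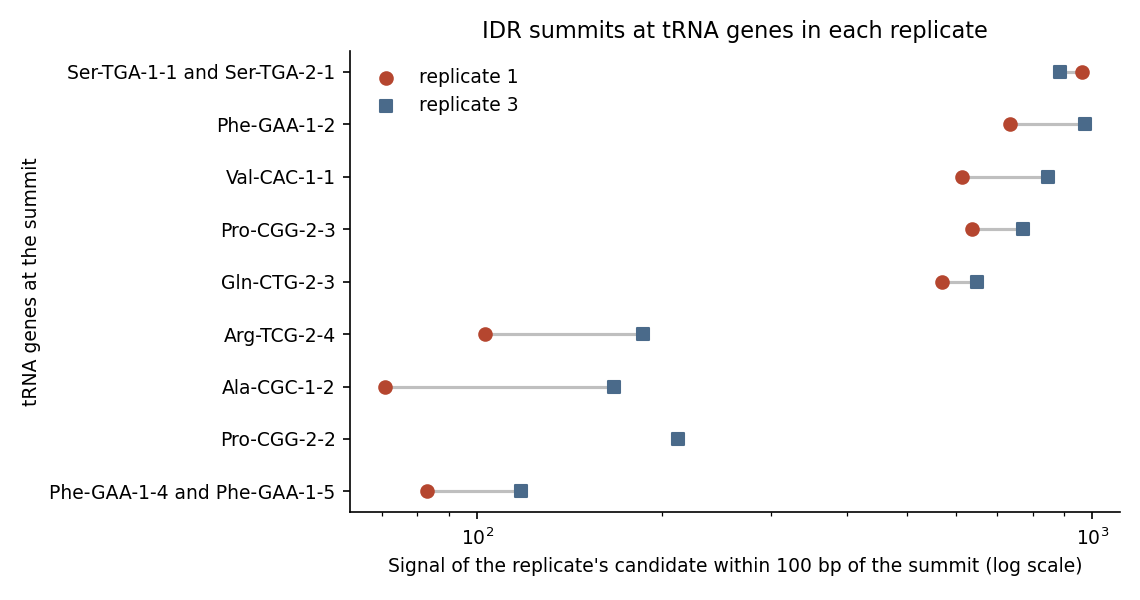
Signal (authors' value, log scale) of the candidate within 100 bp of each of the 9 IDR summits at tRNA genes, in replicate 1 (circles) and replicate 3 (squares), joined by a line. Of the 9, 5 summits lie at 569 to 972 in both replicates, and the other summits lie at 212 or lower; replicate 1 has no candidate at Pro-CGG-2-2.

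A protein-coding start was close to several of these peaks. Of the 9 IDR summits at tRNA genes, 5 lay within 500 bp of a protein-coding start, 55.6% (21.2% to 86.3%), against 59.2% of all 1338 IDR summits. Counted by gene this is 5 of 11 tRNA genes, 45.5% (16.7% to 76.6%): tRNA:Gln-CTG-2-3, tRNA:Pro-CGG-2-2, tRNA:Pro-CGG-2-3, tRNA:Arg-TCG-2-4 and tRNA:Phe-GAA-1-2. At these 5, the summit cannot be assigned to the tRNA gene or to the coding promoter. The other 4 summits, at 6 genes, had no coding start within 500 bp, and the nearest was 1495 bp to 7804 bp away. Of the 42 distinct pooled candidates at tRNA genes, 11 lay within 500 bp of a coding start, 26.2% (13.9% to 42.0%), against 14.6% of all 30000 pooled candidates. The 42 include those at the 11 genes with an IDR summit, and IDR summits often lie at a coding start. Among the 33 at genes with a pooled candidate and no IDR summit, 6 lay within 500 bp of a coding start. Counted by gene, all pooled candidates, those at genes with an IDR summit included, gave 11 of 46 tRNA genes, 23.9% (12.6% to 38.8%).

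The tRNA gene's own surroundings gave shares that the counts do not separate. A coding start lay within 500 bp of 32 tRNA genes, and 3 of these had an IDR summit, 9.38% (1.98% to 25.0%), against 8 of the other 258, 3.10% (1.35% to 6.02%). Among the 134 tRNA genes inside a protein-coding gene, 3 had an IDR summit, 2.24% (0.464% to 6.40%), against 8 of the 156 outside, 5.13% (2.24% to 9.85%). For pooled candidates the order of these was turned round, at 27 of 134 inside, 20.1% (13.7% to 27.9%), against 19 of 156 outside, 12.2% (7.49% to 18.4%). Of the 185 genes in clusters of at least 2, 8 had an IDR summit, 4.32% (1.89% to 8.34%), against 3 of the 105 that stood alone, 2.86% (0.593% to 8.12%). None of the 16 genes with an intron had an IDR summit, (95% interval 0% to 20.6%), and 3 of them had a pooled candidate. By arm, the genes with an IDR summit were 5 of 98 on 2R, 2 of 48 on 3L, 2 of 79 on 3R, 1 of 41 on 2L and 1 of 24 on X. Intervals overlap in each of these pairs.

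The largest clusters had no summit of either list within 500 bp of a gene, as was the case for most tRNA genes. Among all 290, 244 had no pooled candidate and 11 had an IDR summit. On X, 7 arginine and serine tRNA genes lie between 14014814 and 14017284, and the nearest IDR summit was 168863 bp away and the nearest pooled candidate 1347 bp. On 2R, 7 isoleucine and leucine tRNA genes lie between 13430282 and 13432794, at 50623 bp and 3949 bp. The next clusters in size have 6 genes each. That on 3R, of asparagine and arginine genes, was 34468 bp from an IDR summit, and that on 3L, of cysteine and lysine genes, was 24535 bp from one. A cluster of 5 genes on 2R, which begins with tRNA:Arg-ACG-1-2, had a pooled candidate at 1 gene, 414 bp away.

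Just outside the window were tRNA:Ala-CGC-1-3 at 505 bp and tRNA:Ala-CGC-1-1 at 538 bp from the summit of signal 239 named above. They were followed by tRNA:Gln-CTG-2-2 at 642 bp, tRNA:Gln-CTG-2-4 at 717 bp and tRNA:Pro-TGG-1-1 at 877 bp. The farthest inside the window was tRNA:Val-CAC-1-1 at 457 bp, next to tRNA:Arg-TCG-2-4 at 449 bp. Less than 50 bp separates the last gene inside from the first outside, and chromatin was sheared to 200 to 800 bp.

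A further 35 tRNA genes had a pooled candidate and no IDR summit. Their 33 distinct summits had signals of 26.6 at the lowest, 35.0 at the median and 143 at the highest, and the pooled list starts at 26.3 and has a median of 34.7. Replicate 1 had a candidate within 100 bp of 15 of them, replicate 3 of 21, and both of 11. The highest was at an initiator methionine gene, tRNA:iMet-CAT-1-4, 149 bp upstream, at 143, with 44.2 in replicate 1 and 98.5 in replicate 3. That is just under the lowest IDR signal of 144. Next were the threonine genes tRNA:Thr-AGT-2-1, with 129 at 396 bp, and tRNA:Thr-AGT-1-4, with 126 at 112 bp. Both had a candidate in each replicate; the first gave 61.8 in replicate 1 and 54.7 in replicate 3, and the second gave 49.0 in replicate 1 and 71.4 in replicate 3. The other 7 of the 10 highest were tRNA:iMet-CAT-1-3 with 69.5, tRNA:Pro-CGG-2-1 with 65.6, tRNA:Lys-CTT-1-4 with 65.0, tRNA:Thr-AGT-1-2 with 57.2, tRNA:Arg-ACG-1-2 with 56.2, tRNA:Trp-CCA-2-3 with 54.4 and tRNA:Gly-GCC-1-11 with 46.6. Of the 35 genes, the summit was upstream for 22, inside the gene for 4 and beyond the 3′ end for 9.

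Initiator methionine tRNAs start every protein chain, and 6 genes encode them. None had an IDR summit within 500 bp, where 4.46% of all genes have one, so that 6 genes are too few to set this apart. A pooled candidate, which 23.6% of all genes have, was at 3 of 6 (95% interval 11.8% to 88.2%), tRNA:iMet-CAT-1-3, tRNA:iMet-CAT-1-4 and tRNA:iMet-CAT-1-5, at 69.5, 143 and 26.8. The elongator methionine genes had none in either list, 0 of 6 (95% interval 0% to 45.9%). The selenocysteine gene tRNA:SeC-TCA-1-1 had no candidate within 500 bp, and its nearest IDR summit was 50392 bp away. Pooled candidates were at genes of 15 of the 22 isotypes, with 5 of 22 leucine genes, 5 of 17 proline genes and 4 of 8 phenylalanine genes. Genes per isotype are few, and these counts are given as a description. No gene for asparagine, aspartate, cysteine, histidine or isoleucine had one.

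The motif of Pita peaks elsewhere was also at these peaks. The 19 bp matrix matched within 50 bp of 5 of the 9 IDR summits at tRNA genes, 55.6% (21.2% to 86.3%), and in 1 of 18 windows centred 250 bp to their sides, 5.56% (0.141% to 27.3%). At IDR summits away from tRNA genes and over 300 bp from a stronger summit, it matched 688 of 1084, 63.5% (60.5% to 66.3%). These were scored when left out of its learning. It matched 5.77% of their side windows, a share that the threshold sets near 5% by design. The 9 summits at tRNA genes were not filtered in this way. That at tRNA:Pro-CGG-2-2, which held no match, lies 205 bp from a stronger summit. An 8-mer was present at 2 of the 9, 22.2% (2.81% to 60.0%), against 104 of 1328 other IDR summits, 7.83% (6.44% to 9.41%). The 8-mers, from which the matrix was grown, were chosen in earlier work on these same peaks. None of these shares is independent of that choice, including that at the summits left out of learning. All 5 matches at tRNA genes lay outside the tRNA gene. At the weak candidates the matrix matched 5 of 33, 15.2% (5.11% to 31.9%), against 7 of 66 side windows, 10.6% (4.37% to 20.6%), and no 8-mer was found in 33.

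Of the 5 matches at weak candidates, 4 lay inside the tRNA gene itself and were the gene's own match. They were at tRNA:iMet-CAT-1-3, tRNA:iMet-CAT-1-5 and tRNA:Pro-CGG-3-1, at bases 51 to 69 of each gene, and at tRNA:Leu-TAA-1-1, at bases 54 to 72. These are also the 4 genes whose weak summit lay inside the gene. The search covered 50 bp on each side of a summit, so here it covered most or all of the gene. A match that the gene holds is then likely to be found, and the overlap is largely set by the search window. The signals at these 4 genes were 69.5, 26.8, 26.6 and 34.6, against a minimum of 26.3 in the pooled list. Of the 4, only tRNA:iMet-CAT-1-3 had a candidate within 100 bp of the summit in both replicates. For tRNA:Leu-TAA-1-1 it was in replicate 3 alone, and for tRNA:Pro-CGG-3-1 in replicate 1 alone. Neither replicate had one at tRNA:iMet-CAT-1-5, whose peak, with its summit at 3L:14674384, overlaps that of the stronger candidate of 143 at 3L:14674162. The comparison of these summits with the matches was made after these values were seen.

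Across all tRNA genes the matrix matched the gene body in 110 of 290, 37.9% (32.3% to 43.8%), from 33 distinct sequences. All 20 glycine, 17 proline, 14 aspartate, 6 initiator methionine and 5 histidine genes held a match, as did 24 of 26 arginine and 13 of 15 valine genes. The match was on the strand opposite to the gene in 105, and 94 matches started at base 49 to 54. In a gene of the median length of 73 bp this is the arm of the tRNA that follows the variable loop. The 94 include longer genes, such as tRNA:Ile-TAT-1-2 of 100 bp and tRNA:Leu-TAA-1-1 of 84 bp, where these bases need not lie in that arm. In 63 genes the match overlapped the B box word, which starts with GTTCGA. Scores reached 15.2, and their median among the genes with a match was 8.49, against 16.3 at the other IDR summits with a match. Windows of 101 bases centred on the 5′ end of the genes matched in 25 of 290, 8.62% (5.66% to 12.5%). These windows reach only 50 bp into the gene, so they cannot hold a 19 bp match that starts at base 49 to 54. Their share is therefore no background for that in the gene body.

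The shares of genes with a peak had overlapping intervals with and without such a match in the gene body. An IDR summit was within 500 bp of 4 of 110 genes with a match, 3.64% (1.00% to 9.05%), against 7 of 180 without one, 3.89% (1.58% to 7.85%). A pooled candidate was at 19 of 110, 17.3% (10.7% to 25.7%), against 27 of 180, 15.0% (10.1% to 21.1%). Identical copies are not independent here, since each sequence counts as often as it occurs.

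**Figure D5:**
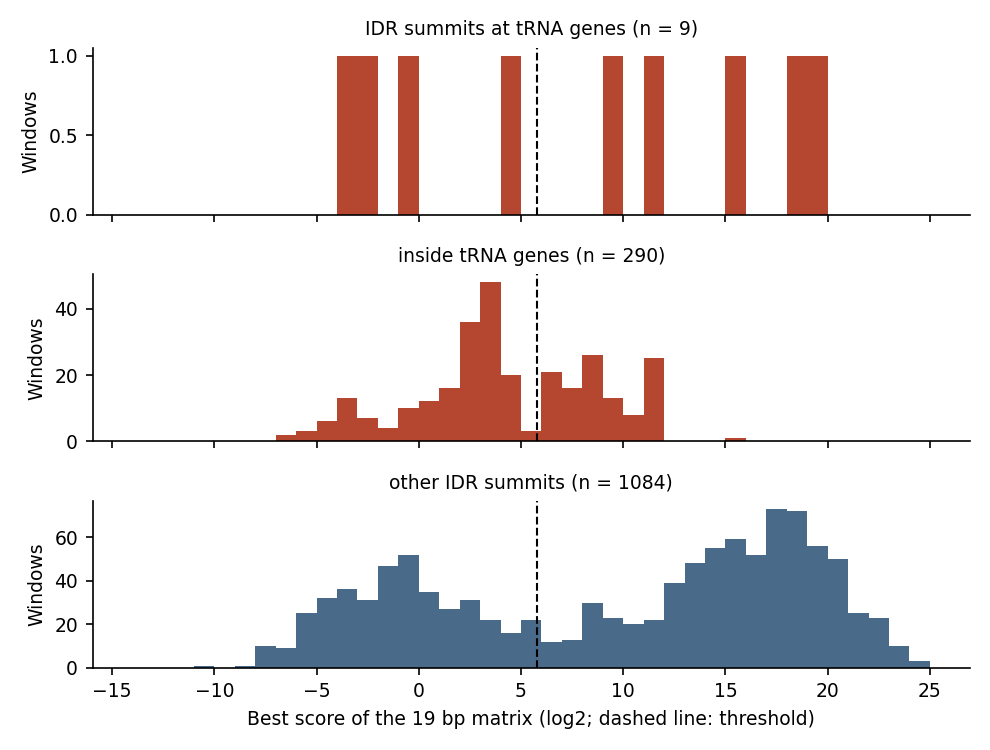
Number of windows by the best score of the 19 bp matrix (log2 scale) within 50 bp of the 9 IDR summits at tRNA genes (top), inside the 290 tRNA genes (middle) and within 50 bp of the 1084 other IDR summits (bottom); the dashed line is the threshold of 5.80. Matches inside tRNA genes lie mostly between the threshold and 12, and those at other IDR summits have a median of 16.3.

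Other genes of the RNA polymerase III pathway were taken from lists chosen with earlier results of these data known. Their counts are to be read against the 4.46% of all genes with an IDR summit and the 23.6% with a pooled candidate, and they lie near these shares for the polymerase and the processing genes. Of 23 genes for subunits of the polymerase and its factors, 1 had an IDR summit within 500 bp. It was Polr2E, a subunit shared with the other nuclear polymerases, at 33 bp with a signal of 949. Pooled candidates were at 6, among them La, whose protein binds the ends of new polymerase III transcripts, with 47.3, Polr3E with 43.3 and Bdp1, a part of TFIIIB, with 31.5. Of 20 genes matched for tRNA processing and modification, none had an IDR summit and 4 had a candidate, among them RtcB, the tRNA ligase, with 77.4, and Rpp30, a part of RNase P, with 53.6. Of 9 other small RNA genes read by the polymerase, 2 had an IDR summit and 3 a pooled candidate. The U6 genes snRNA:U6:96Ab and snRNA:U6:96Ac shared 1 IDR summit of signal 223, at 387 bp and 136 bp, and RNaseP:RNA had a candidate of 61.3. None of the 96 genes for 5S rRNA had a summit in either list, and the median share of unique words around them was 0% there. Its part in their lack of summits was not tested.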

How the data were processed

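The 2 libraries of Pita-GFP embryos, biological replicates 1 and 3, were used. The authors deposited peak lists on dm6 with a signal per peak; per the deposited notes, the candidates were derived from the alignments and a control alignment, and the optimal list from the pooled list and those of each replicate. The sources used here do not give an aligner, a peak caller, an IDR threshold or the scale of the signal. The deposited signal was used unchanged. Read depth is unknown, since no counts were used. The dm3 lists were not used.

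Summits were measured from the 5′ ends of Ensembl release 115 genes, transposable elements left out, with pandas 2.3.3 and NumPy 2.4.6 in Python 3.11.15. Intervals came from SciPy 1.17.1 and figures from matplotlib 3.10.9. Sequences are RefSeq's of the same assembly. The matrix was learned in 8 rounds on 1084 IDR summits over 500 bp from tRNA genes and not within 300 bp of a stronger summit. On simulated peaks 200 of 200 distances and 200 of 200 planted sites were recovered, and 15 of 200 windows without a site passed the threshold. The planted sites were built around the 8-mers, and the windows scored were those the matrix was learned on. Their recovery therefore checks the code and does not measure how many sites are found in the deposited peaks.

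No test was made, since there is 1 group. Members, lists, 8-mers and comparisons were chosen with earlier results of these data known. Genes named are all those with an IDR summit within 500 bp, the 10 strongest with a pooled candidate only, the 5 just outside the window, the largest clusters (4 in place of 3, because of a tie), the initiator methionine and selenocysteine genes, and each IDR gene of the other lists; further genes named were chosen after their values were seen. Of 24 processing genes written, 4 symbols were not matched.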

Additional observations from a re-analysis of the deposited data

How the results depend on the processing

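Of 51 alternative settings, 45 left the value inside the 95% interval of the value given above. These 45 include the median signal from each replicate alone. It is on another scale than the pooled signal, so its place inside the interval carries no meaning. The share of tRNA genes with an IDR summit was 1.72% with a window of 200 bp. The share with a pooled candidate was 6.21% with 200 bp, 39.0% with 1000 bp, 22.4% with clusters counted once and 9.31% with the strongest 10000 candidates. The share of tRNA genes with a pooled candidate whose candidate lay at a coding start was 8.70% when the start had to be within 250 bp. Changed windows and fewer candidates account for these by construction, except for the clusters, where the unit counted is another one. Inside the intervals, which are wide at these counts, further values moved by over 1.5 times. The IDR share was 5.86% with a window of 1000 bp and 2.07% with the peaks above the list's median signal. The share of IDR genes at a coding start was 27.3% within 250 bp, that of pooled genes was 37.0% within 1000 bp, and the median signal was 744 with a window of 1000 bp. With either replicate alone, the IDR share was 4.48%, the share of those at a coding start 30.8% to 38.5%, the median signal 430 to 569 on the replicates' own scale, the pooled share 14.8% to 20.3% and the share of those at a coding start 16.3% to 18.6%. The settings with unique words were added after seeing the data. No paired analysis was possible because the 2 libraries form 1 group and no test was made. The counts of 11 genes and 9 summits limit every share among them. Genes of a cluster share summits, and the pooled list includes background regions.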
